A study of Mus musculus with 12 samples.

Results

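The 39 genes described here are type I interferon-stimulated genes with mostly antiviral products, chosen by name as a list of symbols that leaves out the Gbp and p200 families. They were found by matching the Ensembl identifiers of the deposited count tables to mouse gene symbols, and all 39 were among the 56941 genes of the tables and passed the filter on low counts in every comparison. The rule uses no measured value, but the members were chosen with earlier results of these data known. RNA was sequenced from bone-marrow-derived macrophages of C57BL/6J mice, as 12 libraries in 4 groups of 3. WT M0 and miR-210 KO M0 macrophages were resting cells, and WT M2 and miR-210 KO M2 macrophages had been given 20 ng/mL IL-4 for 72 hours. M0 control wells were kept alike without IL-4.

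All groups shared the same preparation: bone marrow monocytes enriched by negative magnetic selection and cultured for 7 days in medium with serum and L929-conditioned medium, a source of M-CSF. The KO allele came from mice with a floxed miR-210 gene crossed to Gata-1 Cre mice, and KO and WT animals came from matings of heterozygotes. The deletion is therefore not restricted to macrophages. The number of mice behind the sequenced libraries and the ages at marrow collection are not given in the sources used here, and no label says that libraries of a group came from separate animals, so p-values measure the spread between these libraries only. According to the labels every group formed 1 batch, and effects of batch and group cannot be told apart.

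Type I interferons are secreted proteins that bind the receptor IFNAR1/IFNAR2 on the same or neighbouring cells. The kinases JAK1 and TYK2 then pass the signal to ISGF3, a complex that holds STAT2 and IRF9 and binds interferon-stimulated response elements (ISREs) in the promoters of these genes. Macrophages keep a low tonic signal of this kind at rest. The products sense foreign nucleic acid, degrade or modify viral RNA, block entry or release of virus, and include the ISGF3 subunits STAT2 and IRF9 themselves.

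The promoters of 4 members are shown because these genes carry the results below and hold the letters of the ISRE core, GAAANNGAAA on either strand, which is set in capitals. Each stretch is the 170 bases before the annotated transcription start in GRCm39, written 5′ to 3′ on the strand of the gene. Positions are chr4:156285304-156285473 (minus strand) for Isg15, chr19:34618101-34618270 (plus) for Ifit1, chr19:34560729-34560898 (plus) for Ifit3 and chr19:34585158-34585327 (plus) for Ifit3b.
Isg15: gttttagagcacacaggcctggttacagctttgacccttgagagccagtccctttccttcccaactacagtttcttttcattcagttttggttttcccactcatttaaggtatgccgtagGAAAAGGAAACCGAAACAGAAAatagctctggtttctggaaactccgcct
Ifit1: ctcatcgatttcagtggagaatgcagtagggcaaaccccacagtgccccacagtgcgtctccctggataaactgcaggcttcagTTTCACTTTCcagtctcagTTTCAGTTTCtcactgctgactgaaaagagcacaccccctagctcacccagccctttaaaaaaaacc
Ifit3: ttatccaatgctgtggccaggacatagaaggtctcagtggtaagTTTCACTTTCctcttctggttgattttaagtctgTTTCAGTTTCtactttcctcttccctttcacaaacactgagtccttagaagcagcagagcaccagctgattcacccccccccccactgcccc
Ifit3b: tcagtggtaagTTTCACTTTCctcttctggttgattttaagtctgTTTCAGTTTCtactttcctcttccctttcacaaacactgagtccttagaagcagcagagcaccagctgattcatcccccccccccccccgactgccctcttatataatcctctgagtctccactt
Isg15 holds 3 matches that overlap each other in 1 run, beginning 50, 44 and 38 bases before the start. Ifit1, Ifit3 and Ifit3b each hold 2 separate matches. Ifit3 and Ifit3b share an identical run of 118 bases that includes both matches, and Ifit1 and Ifit3 share 13 bases around 1 of theirs. In the window from 250 bases before to 50 bases after the start, the ISRE core was found in 19 of 39 members (48.7%) and in 830 of 21667 promoters of protein-coding genes (3.83%). The gamma-activated site (GAS), TTCNNNGAA, was found in 8 members (20.5%) and in 1915 promoters (8.84%), and the motifs overlapped in Bst2 and Zbp1 alone among members. A match of letters is a description of these windows and not evidence of binding.

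The libraries held 7930525 to 10167695 counts each. For the deleted gene, Mir210, WT M0 libraries gave 1, 3 and 5 counts, WT M2 libraries gave 1, 2 and 1, and each of the 6 KO libraries gave 0. These values lie at or near the floor of 3 counts, so they do not contradict the labels and check them only weakly. All 6 macrophage markers were present in every group, with a summed level of 3319 to 4009 CPM (counts scaled to library size), and all 4 IL-4 response markers rose with IL-4 in both genotypes. Of the marker lists of other cells, plasmacytoid dendritic cell genes, which would mark a strong interferon source, summed to at most 0.333 CPM in any library. T and NK cell genes reached 0.375 CPM, fibroblast genes 2.09 CPM, neutrophil genes 4.42 CPM and B cell genes 10.2 CPM.

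Levels below are CPM scaled by TMM factors over the 12 libraries, and the mean log2 CPM over the 39 genes summarises each library. It was 7.90, 7.41 and 7.77 in WT M0 libraries 1 to 3, 7.22, 7.17 and 7.35 in KO M0, 5.81, 5.88 and 5.86 in WT M2, and 5.80, 5.75 and 5.35 in KO M2. WT M0 library 2 was the lowest of its group for 38 of 39 genes and library 1 the highest for 33. KO M2 library 3 was the lowest of its group for 36 of 39. The members moved together between libraries of 1 group, and their median coefficient of variation was 13.5% in WT M0 and 15.1% in KO M2, against 7.37% and 6.58% over all genes with a mean of at least 10 CPM. In KO M0 and WT M2 it was 8.95% and 6.06%, against 8.63% and 5.37%. Counts of calls are therefore also given without WT M0 library 2 or KO M2 library 3, and so are single values that moved by over 1.5 times. Medians are given in this way for the comparisons between genotypes and for the interaction, but not for the IL-4 comparisons.

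**Figure D1:**
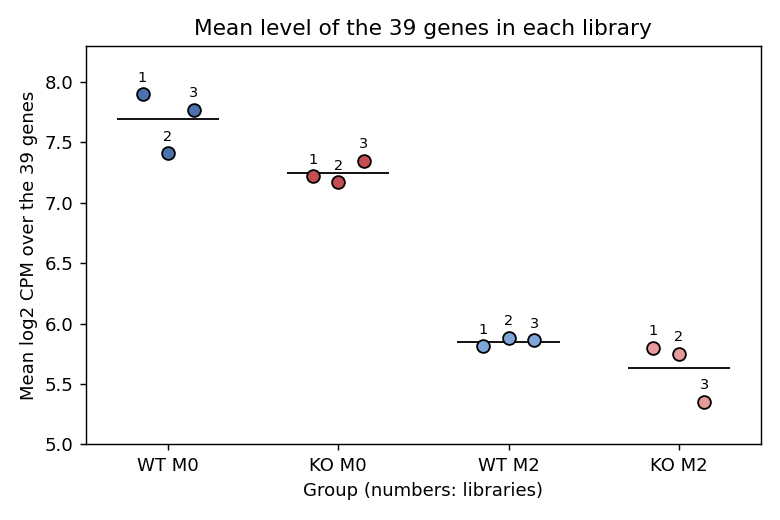
Mean log2 CPM over the 39 genes (vertical axis, from 5) for each library by group (horizontal axis), with library numbers beside the points and a line at the group mean. WT M0 library 2 (7.41) lay nearest to the KO M0 libraries (7.17 to 7.35), and KO M2 library 3 (5.35) lay below the other M2 libraries (5.75 to 5.88).

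The members covered a wide range of levels in resting WT cells. Per kilobase of exon, the highest were Ifitm3, which blocks the entry of viruses through membranes, at 711 CPM per kb, and Bst2 (tetherin), which holds budding virus at the cell surface, at 402. Ifi27l2a (199), Ifit2 (193.5), the Schlafen gene Slfn5 (174), Ifit3 (158) and Rsad2 (129) followed. The lowest were Ifit1bl1, a member of the IFIT cluster, at 4.64 CPM per kb, the ISG15 ligase Herc6 at 9.09 and the ISG15 protease Usp18 at 14.8. In WT M2 cells the top of the order was again Ifitm3 (442 CPM per kb), Bst2 (196) and Ifi27l2a (95.9), and Ifit3b was last at 0.677.

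**Figure D2:**
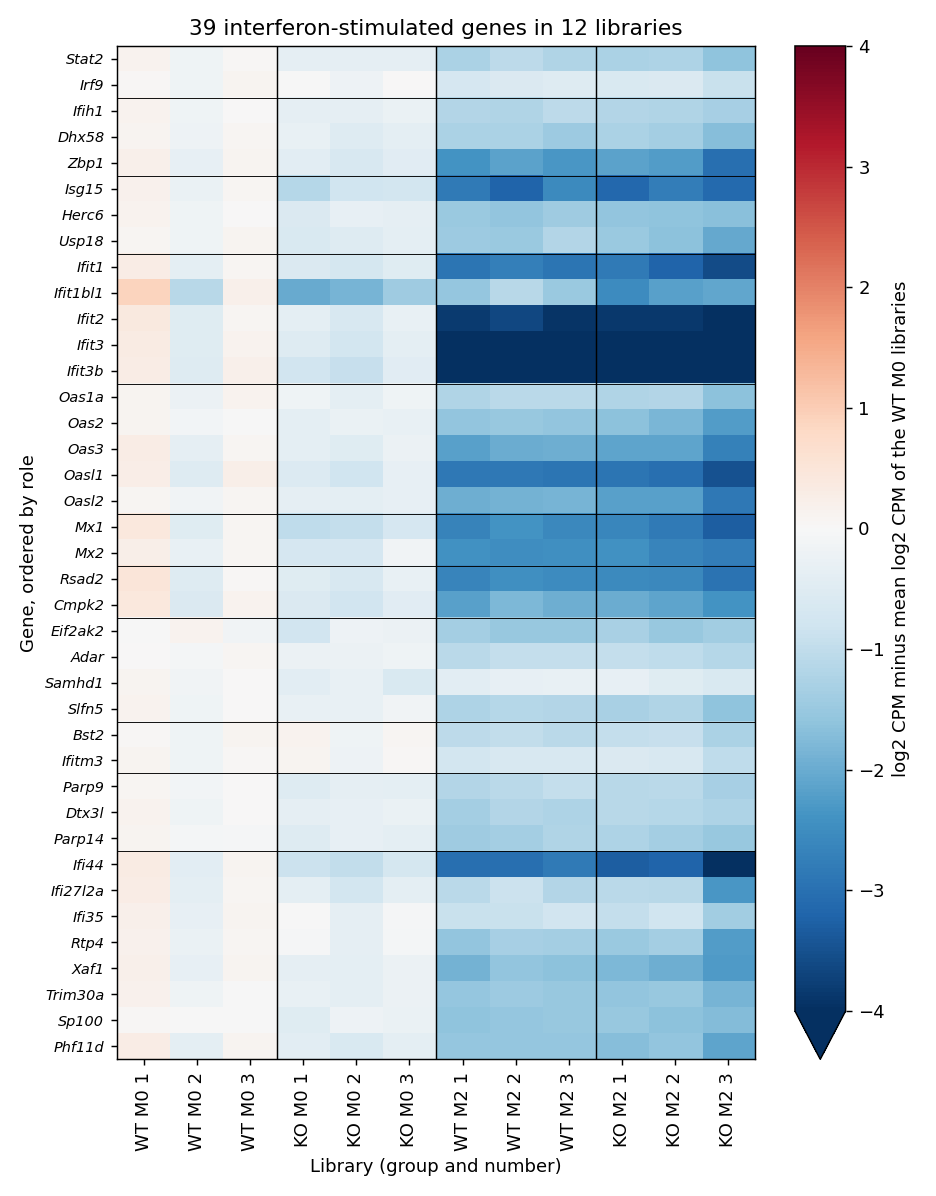
Log2 CPM of each of the 39 genes (rows, ordered by role) in each of the 12 libraries (columns), minus the gene's mean in the WT M0 libraries. Colours stop at -4, below which Ifit3 and Ifit3b lay in all 6 M2 libraries. KO M0 columns are paler blue for most rows, M2 columns are deeper blue in both genotypes, and the rows of Irf9, Bst2 and Ifitm3 show little difference between WT M0 and KO M0.

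The first comparison asked whether loss of miR-210 changed the resting level of these genes. In KO M0 macrophages 38 of 39 members had a lower fitted level than in WT M0, and 2 fell past the test, Isg15 and Ifi44. None rose. A gene was called at a Benjamini-Hochberg adjusted p under 0.05 in edgeR's quasi-likelihood test and a fold change over 1.2 in either direction. Of all 14089 genes tested 0.461% were called, 0.241% called and lower, and 49.9% had a fitted value below 0. The median log2 fold change was -0.42 over the members and 0.0 over all genes, with a range of -1.93 to 0.02 over the members. All 3 KO libraries lay below all 3 WT libraries for 21 of 39 members, against 7.3% of all genes. The unadjusted p was under 0.05 for 34 of 39 members, against 1410 of 14089 genes. In bulk RNA, fewer cells of a type and less RNA per cell cannot be told apart.

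Isg15, on chr4:156283883-156285303 (minus strand), encodes a ubiquitin-like protein that is attached to other proteins after interferon. Its level was 42.4, 31.8 and 40.3 CPM in the WT M0 libraries and 17, 21.6 and 22.8 CPM in the KO M0 libraries. The groups did not overlap, and the mean fell from 38.2 ± 5.64 to 20.4 ± 3.04 CPM (SD, n = 3 each). This was a log2 fold change of -0.89 ± 0.14 (standard error), 1.86-fold lower (edgeR adjusted p = 0.018).

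Ifi44, on chr3:151436559-151455625 (minus strand), encodes an interferon-induced protein with antiviral activity. Its level was 193, 116 and 165 CPM in WT M0 and 84.6, 78.6 and 93.8 CPM in KO M0. Every KO library lay below every WT library, with WT library 2 nearest to them. The log2 fold change was -0.88 ± 0.16, 1.84-fold lower (edgeR adjusted p = 0.036). Ifi44 holds no ISRE core in the window searched.

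Mx1, on chr16:97248235-97264107 (minus strand), had the third-smallest p. It encodes a dynamin-like GTPase that blocks influenza virus, and C57BL/6 mice carry a defective allele, so here it reads out transcription and not protein function. Its level was 416, 222 and 329 CPM in WT M0 and 155, 160 and 196 CPM in KO M0. The groups did not overlap, and the log2 fold change of -0.92 ± 0.18 missed the threshold (edgeR adjusted p = 0.062).

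None of the other members passed the test, and all but Bst2 had a fitted value below 0. Of the ISGF3 subunits among the members, Stat2 was at 308, 251 and 290 CPM in WT M0 and at 218 CPM in each KO M0 library, without overlap (log2 fold change -0.37 ± 0.09, edgeR adjusted p = 0.11). Irf9 was at 145, 124 and 152 CPM in WT M0 and 139, 121 and 142 CPM in KO M0, which overlapped (-0.06 ± 0.10, adjusted p = 0.88). The sensors of RNA and Z-form nucleic acid, Ifih1 (MDA5), Dhx58 (LGP2) and Zbp1, had values of -0.33, -0.40 and -0.52, each without overlap. Beside Isg15, its ligase Herc6 was at -0.42 and its protease Usp18 at -0.50 (adjusted p = 0.069).

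The IFIT proteins bind viral RNA and block its translation. Their 5 genes ranged from -0.48 (Ifit2) to -1.93 (Ifit1bl1). Ifit1bl1 had 16.9, 4.23 and 10.3 CPM in WT M0 and 2.22, 2.47 and 3.38 CPM in KO M0, so its WT libraries differed widely among themselves (-1.93 ± 0.42, adjusted p = 0.085). The OAS family, whose enzymes make oligoadenylates on sensing double-stranded RNA, ranged from -0.25 (Oas1a) to -0.58 (Oasl1) over 5 genes. Rsad2 (viperin), which makes a nucleotide that stops viral polymerases, and its neighbour Cmpk2, a nucleotide kinase, were at -0.52 and -0.65, and both overlapped.

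Among effectors on RNA and nucleotides, Eif2ak2 (PKR) was at -0.38, the RNA editing enzyme Adar at -0.21, the dNTP hydrolase Samhd1 at -0.44 and Slfn5 at -0.25. The ADP-ribosyltransferase Parp14, and Parp9 with its partner Dtx3l, lay at -0.42, -0.42 and -0.32, all 3 without overlap. Mx2 was at -0.48, and the 7 other interferon-induced genes beside Ifi44 ranged from -0.15 (Ifi35) to -0.53 (Ifi27l2a), and among these 7 only the libraries of Trim30a and Sp100 did not overlap. The membrane effectors lay nearest to 0. Bst2 was at 507, 434 and 523 CPM in WT M0 and 535, 430 and 517 CPM in KO M0 (0.02 ± 0.10), and Ifitm3 was at 984, 802 and 947 CPM against 983, 787 and 944 CPM (-0.01 ± 0.11). Their ranges nearly coincided, and the direction of both small values turned when single libraries were left out. Without WT M0 library 2 Bst2 was at -0.05, Ifitm3 at -0.08 and Irf9 at -0.14.

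The number of calls depended on single libraries and on the test. Without WT M0 library 2, 26 of 39 members were called, Mx1 among them, with a median of -0.48, and calls over all genes also rose, from 65 of 14089 to 302 of 14360. Without WT M0 library 1, WT M0 library 3 or KO M0 library 1 none was called, with medians of -0.34, -0.41 and -0.37, without KO M0 library 2 there were 2 (Isg15 and Parp14), and without KO M0 library 3 only Isg15. The DESeq2 Wald test called 16 members, all lower, among 209 of 26251 genes with a p-value. Only genes left by its own filter on low counts could be called there, so this share is not comparable with that of edgeR. The fit of all 12 libraries called 12, all lower, among 248 of 14825 genes.

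**Figure D3:**
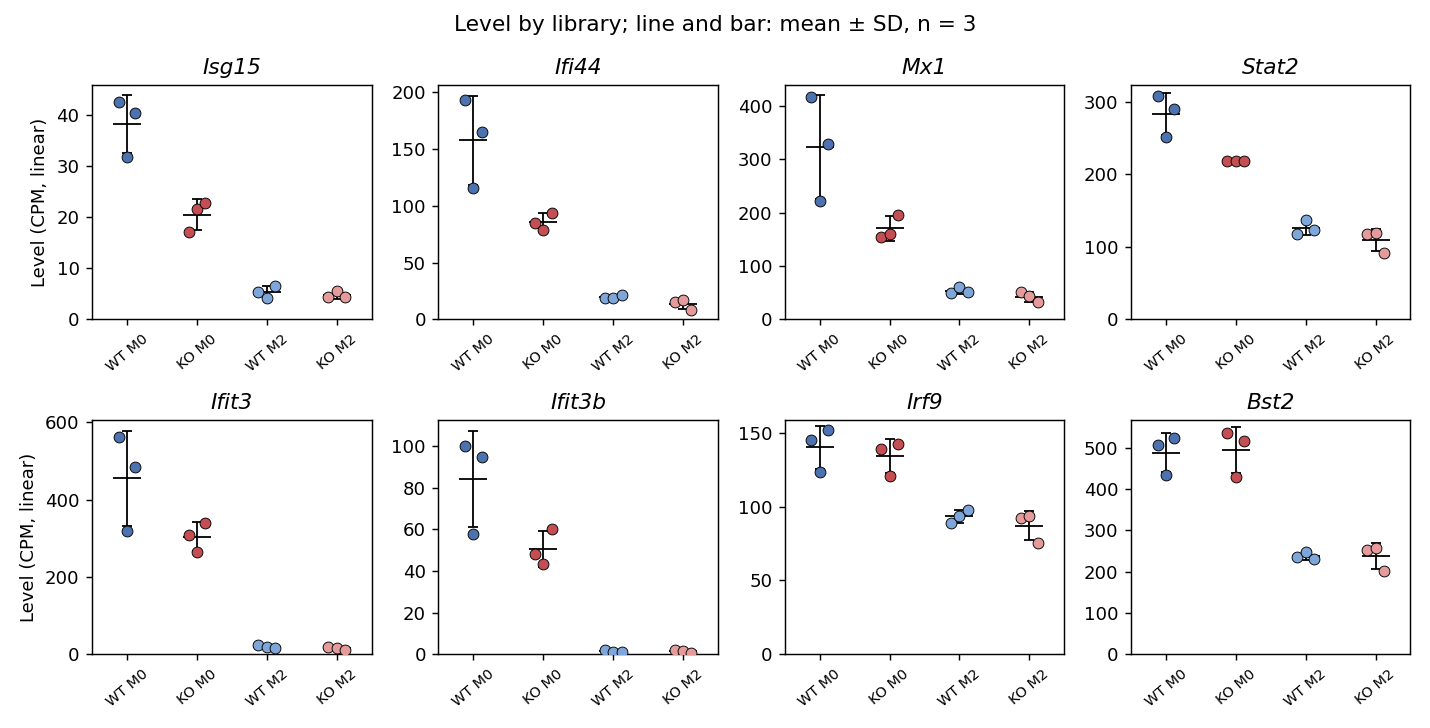
Level in CPM (vertical axes, linear from 0) of 8 members in each library by group, with the mean and SD of 3 libraries as line and bar. For Isg15, Ifi44, Mx1 and Stat2 the KO M0 points lie below all WT M0 points, for Irf9 and Bst2 they overlap, and Ifit3 and Ifit3b lie near 0 in both M2 groups.

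In M2 macrophages the same genotype comparison called no member, in edgeR or in the DESeq2 Wald test. In edgeR 9 of 39 had an unadjusted p under 0.05, against 1498 of 13980 genes, and of all these genes 0.98% were called, 0.572% called and lower. The fitted value was below 0 for 36 of 39 members, against 49.4% of all genes, with a median of -0.17 (0.002 over all genes) and a range of -0.88 to 0.09. The libraries did not overlap for 6 members, Ifit1bl1, Usp18, Phf11d, Ifi44, Oas2 and Oasl2, all lower in KO, against 8.52% of all genes lower without overlap.

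The 3 members with the smallest p were Ifit1bl1, Oasl2 and Ifi44. Ifit1bl1 was at 3.06, 4.21 and 3.21 CPM in WT M2 and 1.59, 1.98 and 2.12 CPM in KO M2 (-0.88 ± 0.25, edgeR adjusted p = 0.13). Oasl2, an OAS-like gene, was at 110, 115 and 117 CPM in WT M2 and 95.7, 95.9 and 59 CPM in KO M2 (-0.44 ± 0.13, adjusted p = 0.13). Ifi44 was at 18.9, 18.9 and 21.6 CPM against 15.7, 16.7 and 8.12 CPM (-0.53 ± 0.18, adjusted p = 0.24). For Oasl2 and Ifi44 KO library 3 lay far below the other KO libraries, which were themselves below every WT library. Without KO M2 library 3 the values were -0.25 for Oasl2 (adjusted p = 0.043, short of the fold limit), -0.28 for Ifi44 (0.28) and -0.96 for Ifit1bl1 (0.11), in edgeR.

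Isg15, called in M0, was at 5.29, 4.10 and 6.55 CPM in WT M2 and 4.28, 5.53 and 4.37 CPM in KO M2, which overlapped (-0.14 ± 0.21, adjusted p = 0.88; -0.08 without KO M2 library 3). Without KO M2 library 3 the median over the members was -0.06, 30 of 39 were below 0 and again none was called. The size of the M2 values therefore rested largely on that library.

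The second question was how IL-4 changed these genes. In WT macrophages all 39 members fell, by a median of 1.51 on the log2 scale, while the median of all genes was -0.001. Of all 14266 genes tested 43% were called, and 20.9% were called and lower. All 3 M2 libraries lay below all 3 M0 libraries for every member, against 28.7% of all genes. The log2 fold changes ran from -5.91 for Ifit3b to -0.34 for Samhd1.

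**Figure D4:**
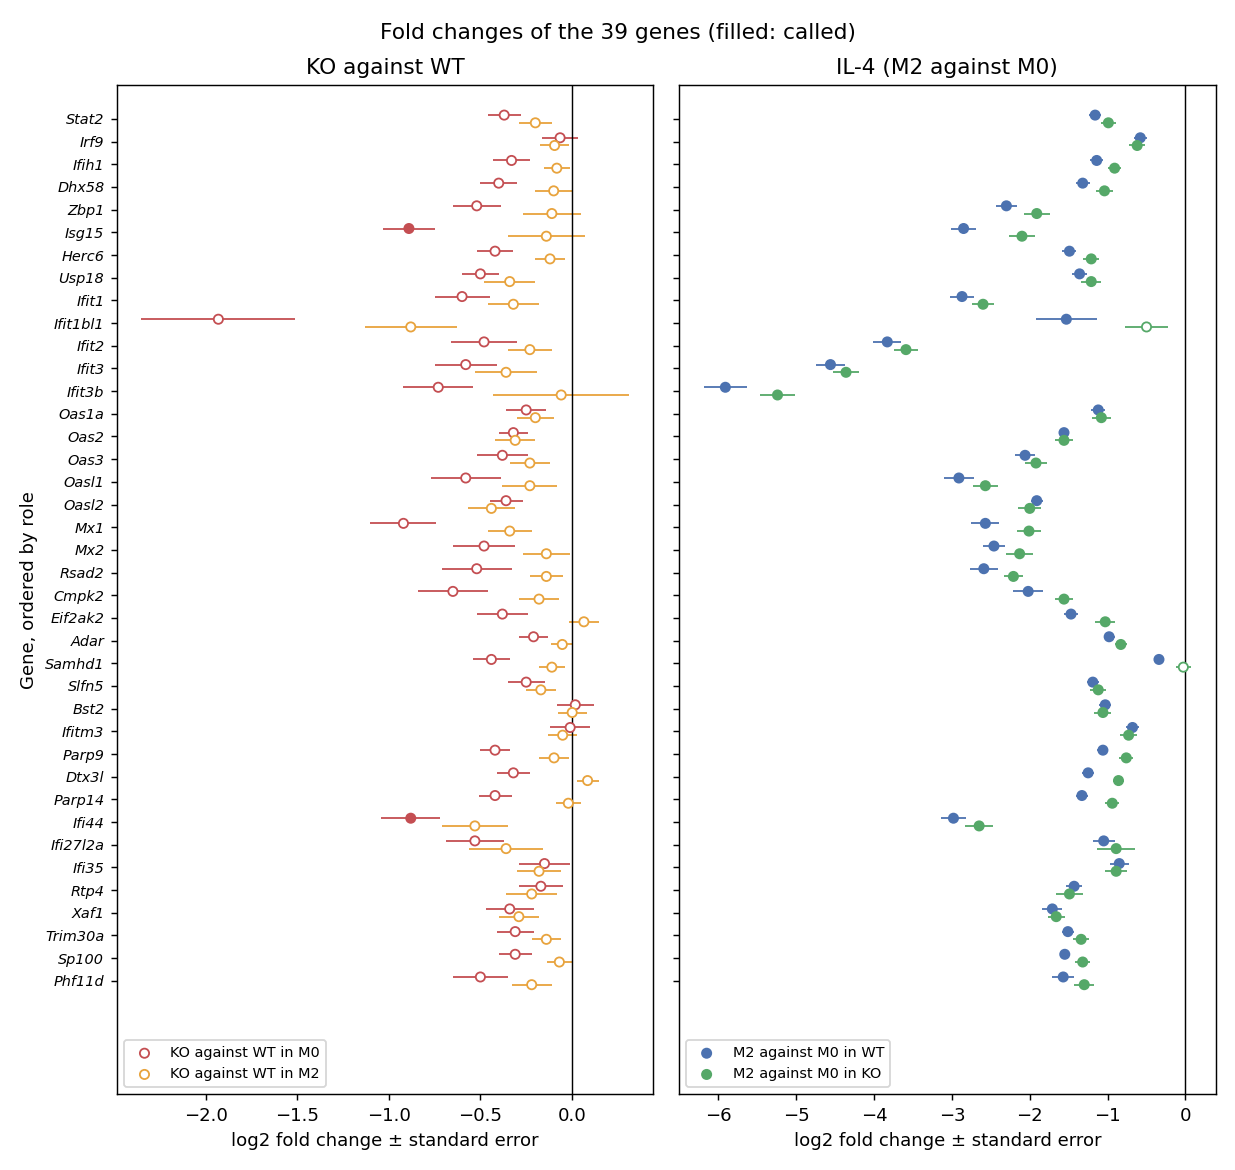
Log2 fold change with its standard error (horizontal axes) for each of the 39 genes (vertical axis, ordered by role), on the left for KO against WT in M0 and in M2, on the right for M2 against M0 in WT and in KO. Filled points passed the test. On the left only Isg15 and Ifi44 in M0 are filled, and on the right all points but Samhd1 and Ifit1bl1 in KO are, with Ifit3b, Ifit3 and Ifit2 farthest from 0.

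The largest falls were in neighbouring IFIT genes on chromosome 19. Ifit3b, at chr19:34585328-34590801 (plus strand), went from 100, 57.7 and 94.8 CPM in WT M0 to 1.88, 1.16 and 1.11 CPM in WT M2, which rests on 9 to 16 counts per M2 library. It fell 60.0-fold (log2 fold change -5.91 ± 0.28, edgeR adjusted p = 1.3e-09). Ifit3, at chr19:34560899-34566443 (plus strand), went from 561, 319 and 484 CPM to 22.5, 18.5 and 16.3 CPM, 23.7-fold lower (-4.56 ± 0.19, adjusted p = 5.1e-10). These are near copies, with 32.7% of the 50-base stretches of Ifit3 and 47.8% of those of Ifit3b found in the other, so reads may have been assigned to either or to none and their separate values are uncertain. The same holds to a lesser degree for Trim30a (26% shared with other genes), Rtp4 (24.1%), Oas1a (23.0%), Herc6 (19.6%) and Phf11d (12.2%).

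Ifit2, at chr19:34527932-34554524 (plus strand), shares no 50-base stretch with another gene. It went from 1462, 795 and 1171 CPM to 77.9, 88.7 and 73.1 CPM, 14.2-fold lower (-3.83 ± 0.18, edgeR adjusted p = 1.4e-09). Ifi44 fell 7.91-fold to 18.9, 18.9 and 21.6 CPM (-2.98 ± 0.16, adjusted p = 5.1e-09). Oasl1, an OAS-like protein that limits translation of the factor IRF7, went from 99.1, 57.9 and 97.7 CPM to 11.4, 11.4 and 10.9 CPM, 7.51-fold lower (-2.91 ± 0.19, adjusted p = 3.1e-08). In each of these 5 genes every M2 library lay far below the lowest M0 library.

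Ifit1 and Isg15, whose promoters are shown above, fell 7.33-fold and 7.19-fold. The roles differed in size. The medians were -3.83 for the 5 IFIT genes, -2.52 for Mx1 and Mx2, -2.30 for Rsad2 and Cmpk2, -1.91 for the OAS family, -1.49 for Isg15, Herc6 and Usp18, -1.32 for the sensors and -1.25 for the PARP and DTX3L group. They were -1.08 for the effectors on RNA and nucleotides, -0.87 for Stat2 and Irf9 and -0.86 for Bst2 and Ifitm3. The 8 other interferon-induced genes had a median of -1.53. Stat2 went from 308, 251 and 290 CPM to 118, 138 and 123 CPM (-1.16 ± 0.08, edgeR adjusted p = 9.3e-08), and Irf9 from 145, 124 and 152 CPM to 88.6, 93.9 and 97.5 CPM (-0.58 ± 0.08, adjusted p = 4.4e-05). Members with the ISRE core in the window had a median of -1.51 (n = 19) and those without it -1.52 (n = 20).

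In KO macrophages 37 of 39 members were called lower with IL-4, and all 39 had a fitted value below 0. Their median was -1.30 against -0.008 for all genes. Of all 14331 genes tested 33.8% were called and 16.4% were called and lower. The libraries did not overlap for 38 members, against 22.7% of all genes. The largest falls were those of Ifit3b (-5.24), Ifit3 (-4.36) and Ifit2 (-3.59), the leading 3 in WT as well. The members not called were Samhd1 and Ifit1bl1. Samhd1 was at 273, 296 and 235 CPM in KO M0 and 288, 261 and 239 CPM in KO M2 (-0.03 ± 0.10, edgeR adjusted p = 0.87). Ifit1bl1 was lower without overlap of the libraries (-0.50 ± 0.28, adjusted p = 0.20). In WT the same 2 genes were called lower, at -0.34 and -1.53. For Ifit1bl1, WT M0 library 2 (4.23 CPM) lay just above the WT M2 libraries (3.06, 4.21 and 3.21 CPM). Neither gene was called in the test of a difference between genotypes described next. The interaction was 0.32 ± 0.13 for Samhd1 and 1.05 ± 0.61 for Ifit1bl1 (edgeR adjusted p = 0.46 and 0.64). Without KO M2 library 3 the count remained 37.

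Whether the fall with IL-4 differed between genotypes was tested as an interaction in 1 fit of all 12 libraries. It called no member and none of the 14825 genes tested (0%) in edgeR, where 8 of 39 members and 1327 genes had an unadjusted p under 0.05. The DESeq2 Wald test called 74 genes, none of them members. The fitted interaction was above 0, a smaller fall in KO, for 33 of 39 members, against 49.7% of all genes, with a median of 0.25 (-0.002 over all genes). The smallest p-values belonged to Dtx3l (0.40 ± 0.11, edgeR adjusted p = 0.23), Parp14 (0.40 ± 0.12, 0.28) and Isg15 (0.75 ± 0.26, 0.36).

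Dtx3l, which pairs with PARP9 as an E3 ligase, was at 398, 319 and 364 CPM in WT M0, 280, 286 and 297 in KO M0, 141, 158 and 152 in WT M2, and 165, 161 and 151 in KO M2. Parp14 was at 968, 846 and 869 CPM in WT M0, 623, 704 and 677 in KO M0, 330, 345 and 387 in WT M2, and 380, 349 and 315 in KO M2. For both genes the genotypes were apart in M0 and overlapped in M2. The interaction median moved to 0.12 without WT M0 library 1, 0.35 without WT M0 library 2 and 0.37 without KO M2 library 3, and no member was called in any of these fits.

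The other genes of the pathway are given from lists of its steps. None of the 17 genes for type I interferons had enough counts to be tested. Ifnb1 was at most at 0.762 CPM, in WT M0 library 1. The receptor subunit Ifnar1 was at 295, 303 and 304 CPM in WT M0, 290, 279 and 279 in KO M0, 376, 384 and 400 in WT M2, and 343, 353 and 358 in KO M2. It rose with IL-4 by 0.37 ± 0.06 in WT and 0.31 ± 0.07 in KO on the log2 scale (edgeR adjusted p = 0.00018 and 0.0033). Its partner Ifnar2 ranged from 140 to 179 CPM over the 12 libraries and was not called in any pair of groups, nor were Jak1 and Tyk2.

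Irf7, the factor that amplifies interferon production, was at 554, 364 and 507 CPM in WT M0 and 403, 330 and 422 in KO M0. In M2 it was at 51.9, 56.4 and 59 CPM in WT and 53.2, 53.9 and 30.1 CPM in KO, and it fell with log2 fold changes of -3.08 and -3.07.

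Of 11 genes for sensing and induction, 8 fell and 1 rose with IL-4 in WT, and 7 fell and 1 rose in KO. Tlr9, the endosomal sensor of DNA, was the one called between genotypes. It was at 32.8, 29.3 and 34.5 CPM in WT M0 and 20.9, 22.6 and 21.1 CPM in KO M0, a fall of 0.58 ± 0.10 (edgeR adjusted p = 0.034). The lower KO level in M0 did not carry over to M2 for this list. In KO against WT, 10 of the 11 genes were below 0 in M0, but 8 were above 0 in M2. The M2 values ran from -0.25 to 0.67, and none was called (lowest edgeR adjusted p = 0.051). Interaction values in this list reached 1.24, also without a call (lowest adjusted p = 0.19). Of 5 inhibitors of the response, 2 rose and 3 fell with IL-4 in WT, and 2 rose and 2 fell in KO. Socs1 had the largest rise, by 4.54 in WT and 4.15 in KO. None of these inhibitors was called between genotypes.

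A further list of 25 interferon-stimulated genes that are no members gave smaller medians. With IL-4, 21 fell and Ifitm1 alone rose in each genotype, with medians of -1 in WT (25 tested) and -0.85 in KO (24 tested). Between genotypes in M0, 23 of 24 tested were below 0 with a median of -0.27, and Samd9l, an antiviral gene, was the one called (454, 380 and 437 CPM in WT, 304, 302 and 312 in KO, -0.47 ± 0.09, edgeR adjusted p = 0.043). The type II interferon gene Ifng had 0 counts in all libraries, which allows up to 0.378 CPM in the shallowest, for counting error only, and its receptor genes Ifngr1 and Ifngr2 with the kinase Jak2 rose with IL-4 in both genotypes.

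Beside these results, Arg1, a marker of the IL-4 response, was called between genotypes in M0, at 50.6, 37.9 and 34.4 CPM in WT and 72.9, 62.9 and 84.7 CPM in KO (0.85 ± 0.15, edgeR adjusted p = 0.034), against 1795 to 2003 CPM in M2. Its part in the M0 difference of the members was not tested. Fcgr1, listed as a macrophage marker and itself inducible by interferon, fell with IL-4 (log2 fold change -2.97 in WT and -2.59 in KO) and was at -0.58 ± 0.12 in KO M0 against WT M0 (adjusted p = 0.083). The dendritic cell list rose with IL-4 through the gene Zbtb46, from at most 1.11 CPM summed in M0 to between 10.2 and 17.9 CPM in M2, and its part in the fall of the members was not tested.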

How the data were processed

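RNA from 12 macrophage cultures was analysed. The authors trimmed the reads with Trimmomatic, removed duplicates with Picard, aligned to GRCm39 with STAR and made strand-specific counts per gene with featureCounts, and the deposited tables hold these counts without normalization, a table for each pair of groups. Removal of duplicates can lower the counts of abundant short genes. Deposited tables of normalized values were not used here. Columns were assigned to groups by their names, and the numbers 1 to 3 are not tied to samples.

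Pairs of groups were tested in R 4.3.3 with edgeR 4.0.16 (quasi-likelihood test, TMM, filterByExpr by group) with 6 libraries per fit, and the interaction with 12. Benjamini-Hochberg adjustment ran over every gene tested in edgeR, and in DESeq2 over the genes left by its default filter on low counts. Calls needed an adjusted p under 0.05 together with a log2 fold change beyond 0.263 in either direction (no limit on the fold change for the interaction). The standard error is the log2 fold change divided by the square root of F. Alternatives were the DESeq2 1.42.0 Wald test, RLE normalization, no filter, a stricter filter, other limits on the fold change, a fit of all 12 libraries and each library left out. Symbols, exon lengths and promoters came from GENCODE vM39 on GRCm39, which matched 56323 of 56941 identifiers.

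Values in every library are given for members called between genotypes or in the interaction (or the 3 with the smallest p), for the 5 largest falls with IL-4 in WT, for Stat2 and Irf9, and for listed genes outside the members that were called between genotypes, some of which are not reported here. Bst2, Ifitm3, Samhd1 and Ifit1bl1 in other comparisons were named after their values were seen. Members, lists and roles were chosen with earlier results of these data known. Tested on simulated counts with 200 genes given a log2 change of 1, edgeR recovered 75.5% of these genes for KO against WT in M0 over 13937 genes, 84.5% in M2 over 13797, and 63% for the interaction over 14620, and 3.82%, 3.98% and 6.67% of the calls were unchanged genes. All pairs of libraries within groups were further apart than counting noise allows, which does not show that they came from separate animals. Each library was entered as 1 sample in the tests.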

Additional observations from a re-analysis of the deposited data

How the results depend on the processing

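In KO against WT in M0, 2 members were called, 16 by the DESeq2 Wald test, 29 with no filter on low counts, 12 in the fit of all 12 libraries, 0 at a log2 fold change over 1, and between 0 and 26 with each library left out in turn. Isg15 was not called without WT M0 library 1 or 3 or KO M0 library 1 (edgeR adjusted p = 0.11, 0.13 and 0.053), and Ifi44 only remained called without WT M0 library 2 (0.0002, against 0.061 to 0.20). With no filter, 5 members were called in M2 and 3 in the interaction, and otherwise none, including each fit with a library left out (0 to 0). The cause was not tested. Calls over all genes in M0 were 65, against 209 by DESeq2, 532 with no filter, 248 in the fit of 12 libraries, 27 at a log2 fold change over 1 and 20 to 302 with a library left out. In M2 they were 137, against 360 with no filter, 40 at a log2 fold change over 1, 60 in the fit of 12 libraries and 53 to 215 with a library left out. For the interaction they were 0, against 74 by DESeq2, 341 with no filter and 0 to 77 with a library left out. With IL-4 in WT they were 6136, against 2042 at a log2 fold change over 1, where 34 members were called, and in KO 4842 against 1800, where 27 were. Otherwise 39 members were called in WT, and in KO 37 (36 by DESeq2). Values near 0 changed sign when 1 library was left out, between -0.14 and 0.01 for Irf9, -0.05 and 0.11 for Bst2 and -0.08 and 0.09 for Ifitm3 in KO against WT in M0, -0.31 and 0.03 for Isg15 in M2, and -0.13 and 0.04 for Samhd1 with IL-4 in KO. No paired analysis was possible because the labels give the groups no shared replicate numbers and the numbers of the columns are not tied to samples. Depth limits the Ifit3b values in M2 and the genes for interferons, which lie near the floor of 3 counts.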
